A study of Mus musculus with 8 samples.

Results

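The scavenger receptor genes Marco, Msr1, Colec12, Cd36, Scarb1, Cd68, Olr1, Mrc1, Stab1 and Cd163 were examined in peritoneal exudate leukocytes from mice with zymosan-initiated peritonitis. The 10 genes were taken by their symbols from the 49671 genes of the deposited tables, and all 10 passed the filter of 10 counts over all libraries, which left 21423 genes, and entered the comparison of the groups. The family was put forward because Marco was already known to be low in one group of these same mice, so the values of the 10 genes in the 2 groups are given as a description without a test. The study asked whether repeated low doses of specialized pro-resolving mediators (SPMs), lipids that help to end inflammation, change the response to zymosan, a yeast cell wall preparation. Male wild-type C57BL/6 mice aged 6 to 8 weeks received intraperitoneal injections on day 0, day 2, day 5, day 7, day 9 and, with 1 mg of zymosan A, day 12. In the SPM group (4 mice) each injection held a panel of MaR1, RvE2 and the D-series resolvins RvD1, RvD2 and RvD5, at 0.1 ng of each, and in the vehicle group (4 mice) 0.01% ethanol in 1 mL of saline. Mixed, unsorted leukocytes were taken 12 h after zymosan, so all 8 mice carried zymosan inflammation and no unchallenged mouse was sequenced. Each mouse gave 1 library.

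Scavenger receptors are a functional family rather than one of common descent. They are membrane proteins, grouped in classes by structure, that bind modified lipoproteins, microbial polyanions, apoptotic cells or haptoglobin-hemoglobin complexes and carry them into the cell. In the peritoneal cavity they are best known from macrophages, which with their help take up microbes, particles and dying neutrophils. MARCO and MSR1 (class A) bind bacteria and particles through their collagenous or cysteine-rich parts, and CD36 and SCARB1 (class B) bind oxidized lipoproteins and high-density lipoprotein, respectively.

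Between 15154054 and 21114301 counts were assigned to genes per library, and 23051 to 27592 genes were detected. No pair of libraries agreed within sampling noise (chi-square of 7.58 to 56.0 per gene over 28 pairs). The libraries were rich in neutrophil genes, with a summed level of the 8 neutrophil markers of 16956 to 24950 CPM (counts scaled to TMM-normalized library size) in SPM mice and 12746 to 23436 in vehicle mice. The 9 markers of resident large peritoneal macrophages summed to 350 to 479 CPM and 392 to 564 CPM, none of them at 0 in any mouse. Adgre1 made up most of these sums, and the other 8 markers summed to 51.8 to 75.3 CPM and 50.9 to 141 CPM. In a bulk exudate, fewer cells of a type and less RNA per cell cannot be told apart. Vehicle mice 1 and 3 had the most genes detected (26428 and 27592).

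The levels of the 10 genes were first set against each other as deposited TPM, which are corrected for gene length, over all 8 mice. Cd68, which encodes a lysosomal glycoprotein of macrophages (class D), stood highest at 875 ± 123 TPM (SD, n = 8). Msr1 followed at 188 ± 35.0 TPM (SD, n = 8), and the ranges of the pair did not overlap, at 725 to 1100 TPM and 155 to 240 TPM. Stab1 was at 96.6 ± 28.8 TPM (SD, n = 8), Olr1 at 77.3 ± 7.51 TPM (SD, n = 8) and Cd36 at 53.3 ± 9.32 TPM (SD, n = 8). Stab1 and Olr1 did not differ beyond their spread, since Stab1 was the higher in only 6 of the 8 mice. Marco and Mrc1 had nearly the same mean, 30.8 ± 21.0 TPM (SD, n = 8) and 30.3 ± 10.8 TPM (SD, n = 8), and their order depended on the group. Marco exceeded Mrc1 in 3 of 4 vehicle mice and in 0 of 4 SPM mice. Cd163 (11.9 ± 2.70 TPM, SD, n = 8) and Scarb1 (8.69 ± 1.23 TPM, SD, n = 8) were lower, with overlapping ranges, and Colec12 was lowest at 2.32 ± 0.992 TPM (SD, n = 8). Among the 21423 genes tested, Cd68 ranked 154th by mean TPM and Colec12 ranked 11942nd.

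**Figure D1:**
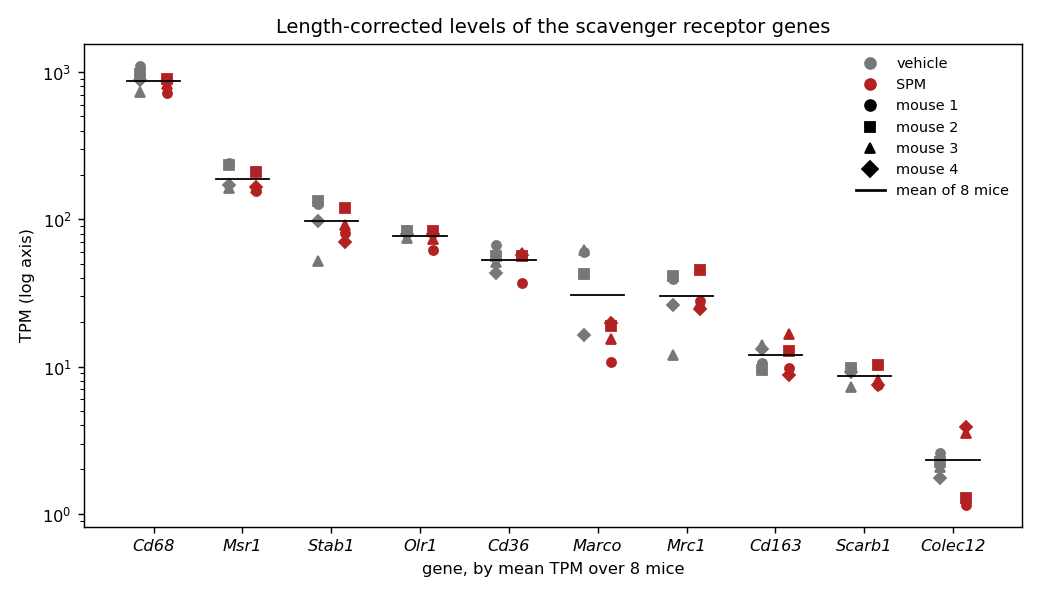
Deposited TPM (log axis) of the 10 scavenger receptor genes in each of the 8 mice, ordered by the mean over all mice (black line), with vehicle in grey, SPM in red and a symbol for each mouse number. Cd68 lies between 725 and 1100 TPM in every mouse, and Marco spreads from 10.8 to 61.9 TPM.

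Cd68 alone made up 61.2% to 66.5% of the summed TPM of the 10 genes, and Msr1 12.6% to 14.8%. Both shares varied little from mouse to mouse. The share of Marco was 0.968%, 1.29%, 1.20% and 1.51% in SPM mice 1 to 4 and 3.47%, 2.70%, 5.31% and 1.22% in vehicle mice 1 to 4. Vehicle mouse 4 was therefore within the SPM range, and the other vehicle mice were above it.

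Marco (ENSMUSG00000026390, chromosome 1 from 120474538 to 120505024 of GRCm38, minus strand) encodes the macrophage receptor with collagenous structure, a class A receptor of resident macrophages that binds unopsonized bacteria and particles. No exon of another gene of GENCODE M21 overlaps its exons. SPM mice 1 to 4 were at 7.04, 12.7, 10.7 and 13 TMM-normalized CPM, from 152, 232, 174 and 201 counts. Vehicle mice 1 to 4 were at 40.5, 28.0, 47.2 and 11.1 CPM, from 850, 599, 925 and 228 counts. All SPM mice were low, 3 vehicle mice were high, and vehicle mouse 4 lay among the SPM mice, so the groups overlapped. The log2 fold change of edgeR, SPM over vehicle, was -1.55 (standard error 0.34), the largest in size among the 10 genes. It was -1.83 without vehicle mouse 4 and -1.29 without vehicle mouse 3. The spread within the vehicle group was wide, with a coefficient of variation of 50.0% against 25.2% in the SPM group.

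The sequence before the transcription start of Marco is shown because it is the gene of this family whose level differed most between the groups, and those of Mrc1 and Stab1 because this pair varied together from mouse to mouse (r = 0.98 with group means removed). The windows are RefSeq promoters of GRCm38.p6, 5′ to 3′ on the gene's strand, from 250 to 23 bases before the start, at chr1:120505047-120505274 (minus strand), chr2:14229164-14229391 (plus strand) and chr14:31168664-31168891 (minus strand). The start is that of RefSeq. For Mrc1 it differs from the gene start of the count files (14229392), which directly follows the window. Capitals mark GAGGAA, the core bound by the myeloid factor PU.1, on either strand.
Marco: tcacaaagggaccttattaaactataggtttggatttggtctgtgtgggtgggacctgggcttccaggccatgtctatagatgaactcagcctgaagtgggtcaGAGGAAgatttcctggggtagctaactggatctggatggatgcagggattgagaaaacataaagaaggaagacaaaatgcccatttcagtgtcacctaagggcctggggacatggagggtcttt
Mrc1: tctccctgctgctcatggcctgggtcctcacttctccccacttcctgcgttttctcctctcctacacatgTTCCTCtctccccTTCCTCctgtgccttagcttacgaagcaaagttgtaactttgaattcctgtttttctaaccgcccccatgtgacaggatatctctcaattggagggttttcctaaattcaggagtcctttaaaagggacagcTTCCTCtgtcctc
Stab1: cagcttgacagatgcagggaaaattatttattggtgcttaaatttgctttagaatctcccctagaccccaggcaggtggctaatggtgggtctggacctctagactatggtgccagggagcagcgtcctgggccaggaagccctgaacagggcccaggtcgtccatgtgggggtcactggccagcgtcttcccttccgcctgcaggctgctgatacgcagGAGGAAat
The letters occurred 1 time before Marco, 3 times before Mrc1 and 1 time before Stab1. Promoters were found for 7 of the 10 genes (not for Msr1, Scarb1 and Colec12), and GAGGAA was in 5 of them, against 21.2% of the 32851 promoters of the table over the same 228 bases. TTNNGNAA, a loose form of the C/EBP motif, was in 5 of the 7 and in 34.9% of all promoters. TGANTCA of AP-1 was in 2 of the 7, before Cd68 and Olr1, and in 6.30% of all. TGACNNNGC, the core of the antioxidant response element, was in 0 of the 7 and in 9.11% of all. Both strands were searched, and a GAGGAA and a TTNNGNAA did not overlap before Marco, where they began 146 and 98 bases before the start. These are matches of letters in a short window, not binding sites.

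Msr1 (chromosome 8 from 39581685 to 39642673) encodes macrophage scavenger receptor 1, the other collagenous class A receptor and a receptor for acetylated lipoprotein. It had 333, 464, 370 and 360 CPM (SPM mice 1 to 4) and 532, 507, 407 and 386 CPM (vehicle mice 1 to 4). Vehicle mice 1 and 2 were above every SPM mouse, while vehicle mice 3 and 4 lay within the SPM range. The log2 fold change was -0.26 (standard error 0.13). Set against Msr1 in the same library, Marco was at 6.98 to 11.9 TPM per 100 TPM of Msr1 in SPM mice, at 25.1, 18.2 and 38.2 in vehicle mice 1 to 3, and at 9.53 in vehicle mouse 4. The class A receptors thus did not vary in proportion to each other.

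Colec12 (chromosome 18 from 9707648 to 9877995) encodes a collectin with a lectin domain, a class A receptor found on endothelial and stromal cells. Its counts were few, 27 to 69 per library. SPM mice 1 and 2 were at 1.30 and 1.48 CPM and SPM mice 3 and 4 at 4.24 and 4.39 CPM, around the vehicle mice at 3.00, 2.52, 2.75 and 2.05 CPM. The SPM mice thus lay on both sides of the vehicle mice, and the log2 fold change was 0.12 (standard error 0.36), with -0.15 without SPM mouse 4 and 0.38 without SPM mouse 1. The 6 fibroblast markers summed to 46.3, 72.4, 67.5 and 53.4 CPM in SPM mice 1 to 4 and the 5 endothelial markers to 79.3, 68.8, 58.9 and 57.0 CPM. In vehicle mice 1 to 4 the fibroblast sums were 36.5, 79.6, 61.4 and 99.5 CPM, lowest where Colec12 was highest and highest where it was lowest, and the endothelial sums were 70.8, 69.0, 58.8 and 66.1 CPM. Within the fibroblast list, in SPM mice 1 to 4, Col1a1 (16.6, 17.7, 26.7 and 27.8 CPM) and Pdgfra (1.76, 2.02, 2.70 and 2.65 CPM) were higher in SPM mice 3 and 4 than in SPM mice 1 and 2, as Colec12 was, while Col3a1 (12.6, 29.4, 17.5 and 11.2 CPM) and the other members were not. These genes were singled out after their values were seen, and the part of stromal cells in the level of Colec12 was not tested.

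**Figure D2:**
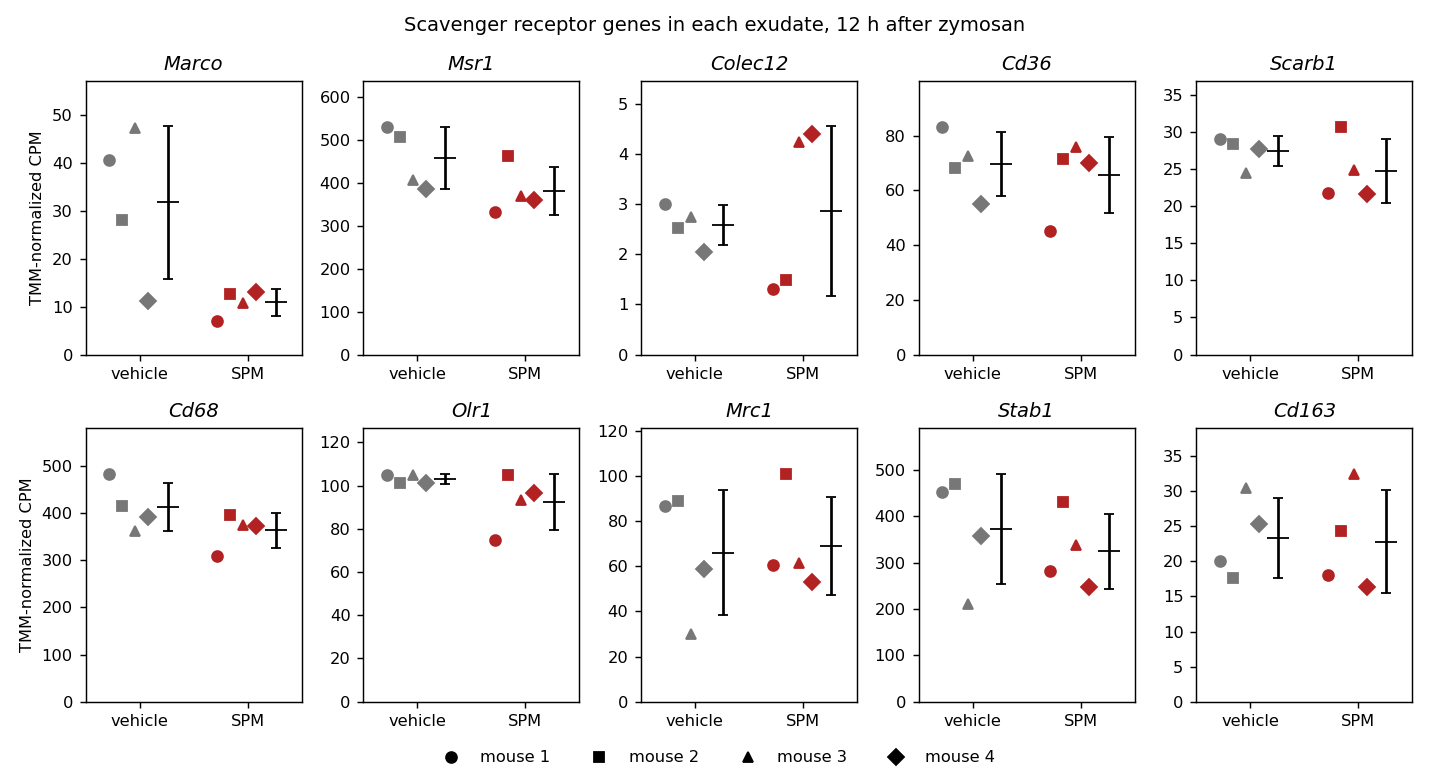
TMM-normalized CPM of each scavenger receptor gene in the 4 vehicle mice (grey) and the 4 SPM mice (red), with a symbol for each mouse number and the group mean ± SD in black beside the points. Marco is at 7.04 to 13 CPM in all SPM mice and at 28.0 to 47.2 CPM in all vehicle mice except vehicle mouse 4 (11.1 CPM).

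In class B, Cd36 (chromosome 5 from 17781690 to 17888801), a receptor for oxidized lipoprotein and long-chain fatty acids, had 45.0, 71.3, 75.7 and 69.9 CPM (SPM mice 1 to 4) and 83.3, 68.3, 72.4 and 55.0 CPM (vehicle mice 1 to 4). SPM mouse 1 was the lowest and vehicle mouse 1 the highest, and the groups overlapped (log2 fold change -0.09, standard error 0.16). Without SPM mouse 1 the value was 0.06. Scarb1 (chromosome 5 from 125277087 to 125341094), the high-density lipoprotein receptor, was at 24.7 ± 4.29 CPM (SD, n = 4) in SPM mice and 27.4 ± 2.05 CPM (SD, n = 4) in vehicle mice (log2 fold change -0.15, standard error 0.12). The highest mouse of all for Scarb1 was SPM mouse 2, at 30.7 CPM, and the value was -0.27 without that mouse and -0.08 without SPM mouse 1.

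Cd68 (chromosome 11 from 69664213 to 69666153) had 309, 395, 374 and 373 CPM (SPM mice 1 to 4) and 483, 415, 362 and 391 CPM (vehicle mice 1 to 4). Vehicle mice 1 and 2 were above every SPM mouse and vehicle mice 3 and 4 were not, the same split as for Msr1. The log2 fold change was -0.19 (standard error 0.11), and -0.10 without vehicle mouse 1.

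Of the lectin-like class E genes, Olr1 (chromosome 6 from 129485244 to 129507165), which encodes the oxidized lipoprotein receptor LOX-1, was the steadiest of the 10 genes in vehicle mice, at 103 ± 2.47 CPM (SD, n = 4, coefficient of variation 2.40%). SPM mice 1 to 4 were at 74.7, 105, 93.4 and 96.4 CPM. SPM mouse 1 lay below the others, and SPM mouse 2 was level with the vehicle mice (log2 fold change -0.16, standard error 0.10). The value was -0.06 without SPM mouse 1. Mrc1 (chromosome 2 from 14229392 to 14332057), the mannose receptor and a common marker of alternatively activated macrophages, had 60.4, 101, 61.4 and 53.0 CPM (SPM mice 1 to 4) and 86.6, 88.9, 30.1 and 58.8 CPM (vehicle mice 1 to 4). Vehicle mouse 3, the highest mouse for Marco, was the lowest for Mrc1. The group means of Mrc1 were close, 68.9 ± 21.5 CPM (SD, n = 4) and 66.1 ± 27.6 CPM (SD, n = 4), and the log2 fold change was 0.06 (standard error 0.28) that was -0.18 without SPM mouse 2. Leaving out vehicle mouse 3 gave -0.17, and leaving out vehicle mouse 2 gave 0.25.

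Stab1 (class H, chromosome 14 from 31139013 to 31168641), which encodes stabilin-1, a receptor of macrophages and sinusoidal endothelium for acetylated lipoprotein and matrix fragments, had 282, 432, 338 and 247 CPM (SPM mice 1 to 4) and 453, 470, 211 and 357 CPM (vehicle mice 1 to 4). Vehicle mouse 3 was again the lowest of all, and the log2 fold change was -0.20 (standard error 0.23), with a range from -0.39 without vehicle mouse 3 to -0.06 without vehicle mouse 2. An exon of Nt5dc2 on the opposite strand overlaps Stab1, so a part of its reads is uncertain. Cd163 (class I, chromosome 6 from 124304656 to 124330527), the receptor for haptoglobin-hemoglobin, had 18.0, 24.4, 32.5 and 16.3 CPM (SPM mice 1 to 4) and 20.0, 17.6, 30.4 and 25.4 CPM (vehicle mice 1 to 4). Its log2 fold change was -0.04 (standard error 0.21), which became -0.24 without SPM mouse 3 and 0.13 without vehicle mouse 3.

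Across the family, 8 of the 10 genes had an estimate below 0, against 52.8% of all 21423 genes tested, and the median log2 fold change was -0.15, against -0.02 over all genes tested. Over the same mice, all 6 monocyte markers also had an estimate below 0 (median -0.15), with F13a1 at -0.31 (unadjusted p = 0.0151 and adjusted p = 0.790 from edgeR). The monocyte markers summed to 2896 to 3980 CPM in SPM mice and 2575 to 4460 CPM in vehicle mice. All 4 B cell markers had an estimate above 0 (median 0.26), and summed to 428 to 931 CPM and 445 to 622 CPM, with Ms4a1 at 0.42 (unadjusted p = 0.0392 and adjusted p = 0.790 from edgeR). No marker of either list was at 0 in any mouse. Estimates were also below 0 for all 6 fibroblast (median -0.29), 4 of 5 endothelial (median -0.46) and 4 of 5 mesothelial markers (median -0.32). They were also above 0 for all 3 T cell markers (median 0.35) and all 3 eosinophil markers tested (median 0.11). The part of these cells in the values of the 10 genes was not tested. For none of the 10 did the groups separate fully, with all SPM mice below all vehicle mice (2.37% of all genes) or above them (1.46%). After Benjamini-Hochberg adjustment over all genes, edgeR called 0 genes at 0.05, with 1303 (6.08%) at an unadjusted p under 0.05. DESeq2 and limma on log2(TPM + 1) also called 0 after adjustment, with 1087 and 1194 genes at an unadjusted p under 0.05.

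**Figure D3:**
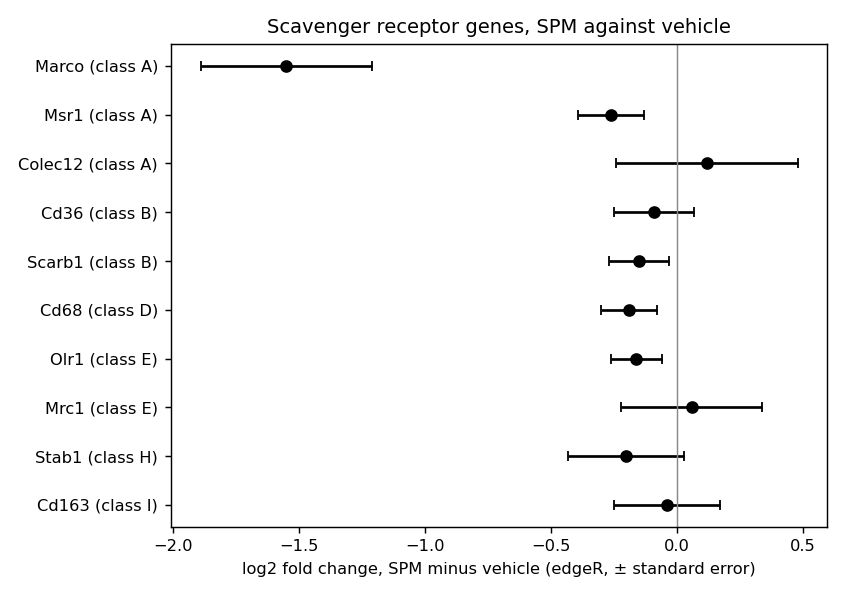
Log2 fold change of SPM over vehicle from edgeR for each of the 10 genes, with bars for ± 1 standard error and the class of the receptor in brackets. Marco is at -1.55, and the other 9 genes lie between -0.26 and 0.12.

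The genes also differed in how they varied among mice once the mean of each group had been removed. Over the 45 pairs of the 10 genes, the median Pearson correlation of log2 CPM was 0.38, and 10 pairs were above 0.7. These values describe 8 libraries that share their depth and cell makeup, and they carry no test. Mrc1 and Stab1 were the closest pair (r = 0.98), and both also moved with Msr1 (0.78 and 0.76) and Scarb1 (0.78 and 0.83). Marco moved with Cd36 (0.78) and less with Msr1 (0.51), and not with Stab1 (-0.14) or Mrc1 (-0.11). Cd163 stood apart from all of them, its highest correlation being 0.31 with Olr1.

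The gene with the pattern most like Marco over the 8 mice, among 9608 genes with a mean of at least 5 CPM, was C4b (r = 0.998), which encodes complement component C4. C4b had 14.6, 20.8, 18.5 and 22.7 CPM (SPM mice 1 to 4) and 44.4, 35.0, 50.8 and 19.3 CPM (vehicle mice 1 to 4). The order of the 8 mice was the same for both genes, vehicle mouse 4 included, and with the group means removed the correlation was 0.997. C4b has a near copy, C4a, so its reads could be split. Nucb2 (0.979), Smim15 (0.977), Fam96a (0.975) and Arf4 (0.967) came next over the 8 mice, with smaller differences, such as 34.5 to 40.1 CPM for Nucb2 in SPM mice and 37.6 to 48.0 CPM in vehicle mice. With the group means removed, Sel1l3 (0.978), Farsb (0.963), Nucb2 (0.955) and Fam96a (0.953) followed C4b. All of these were picked as the closest of 9608 genes over only 8 mice. Such a search can give high correlations by itself, and none of them was tested.

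**Figure D4:**
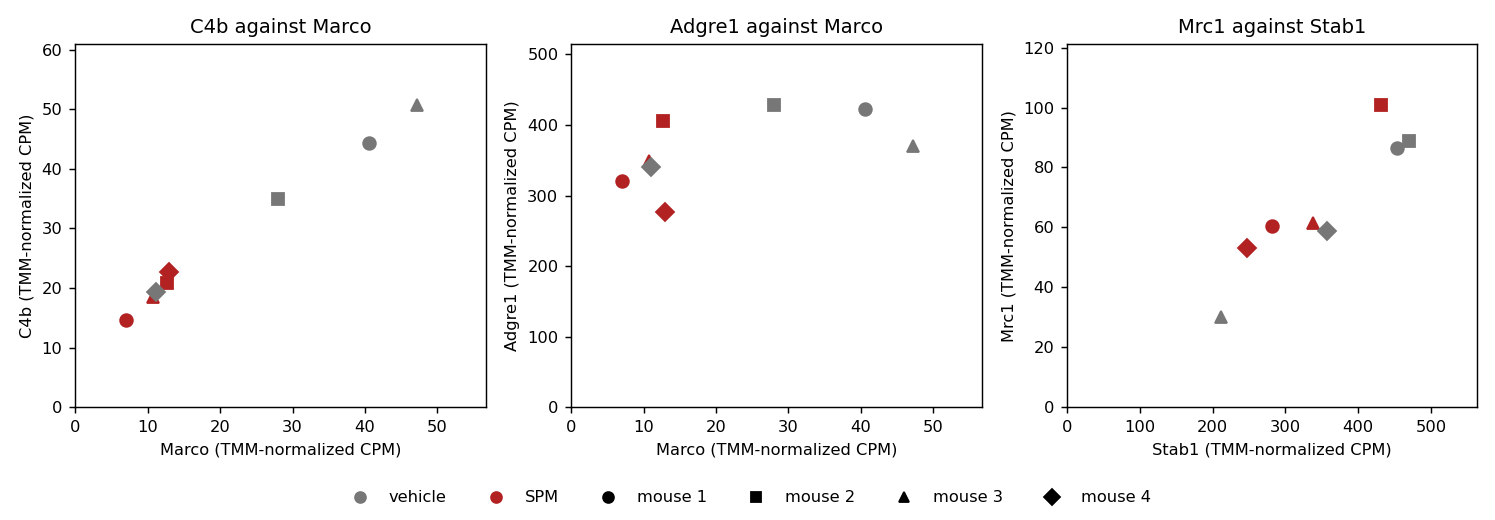
TMM-normalized CPM of C4b against Marco, Adgre1 against Marco, and Mrc1 against Stab1, with 1 point for each mouse (vehicle grey, SPM red). C4b follows Marco in every mouse from 7.04 to 47.2 CPM of Marco, while Adgre1 does not, and vehicle mouse 3 is lowest for both Stab1 and Mrc1.

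For the other genes of the family, with the group means removed, the nearest patterns were those of Plekhm3 (0.998) and Rgl1 (0.995) for Mrc1, and of the cell cycle gene Ccnd1 (0.995) and Cmklr1 (0.994), which encodes a chemerin receptor, for Stab1. Cmklr1 was at 76.0 CPM in vehicle mouse 3 and at 123 to 144 CPM in the other vehicle mice. Cd68 was nearest to Atp6v1b2 (0.987), a subunit of the proton pump that acidifies lysosomes, and to 0610010F05Rik (0.986). Among the nearest to Msr1 was Arl6ip1 (0.987), which varied only from 233 to 243 CPM over the 8 mice. Scarb1 was nearest to Mrps25 (0.971) and Smim20 (0.956), Cd36 to Atp5c1 (0.977) and Ugdh (0.967), Olr1 to Fam20c (0.976) and Rab8b (0.973), and Cd163 to Cdc42bpg (0.986) and Fgfr1 (0.980). Colec12 was nearest to Cald1 (0.984), which encodes the actin-binding caldesmon, and to Gzf1 (0.979). Cald1 was at 7.55 and 8.58 CPM in SPM mice 1 and 2 and at 23.8 and 22.2 CPM in SPM mice 3 and 4, the split that Colec12 showed. As for Marco, these partners were the closest of 9608 genes over 8 mice, so high correlations can come from the search alone.

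Marco was also set beside the markers of resident large peritoneal macrophages. Adgre1, which encodes F4/80, was at 277 to 405 CPM in SPM mice and 341 to 429 CPM in vehicle mice (log2 fold change -0.21, standard error 0.12, unadjusted p = 0.118 and adjusted p = 0.798 from edgeR). For Adgre1, leaving out SPM mouse 2 gave -0.31 (edgeR, unadjusted p = 0.0289) and leaving out SPM mouse 4 gave -0.11. Per 1000 counts of Adgre1, Marco had 22.0, 31.3, 30.6 and 46.8 counts in SPM mice 1 to 4 and 95.9, 65.2, 128 and 32.7 counts in vehicle mice 1 to 4. Relative to Adgre1 too, vehicle mice 1 to 3 were the 3 highest and vehicle mouse 4 lay within the SPM range. All other markers of the list were far lower than Adgre1. Gata6, for instance, averaged 1.64 CPM in SPM mice and 2.76 CPM in vehicle mice, and Timd4 2.15 and 2.91 CPM. How much of the Adgre1 level came from resident macrophages was not tested, so the ratio to Adgre1 is not a ratio to their content. Of the 9 markers, 7 had an estimate below 0, as 52.8% of all genes had, and Icam2 (0.21) and Alox15 (0.02) were above 0. The median of the 9 markers was -0.42. Of them, 2 had an unadjusted p under 0.05, both lower, as 3.59% of all genes had. Prg4, proteoglycan 4, had 11.1, 20.0, 26.3 and 37.7 CPM (SPM mice 1 to 4) and 84.9, 41.5, 81.9 and 16.2 CPM (vehicle mice 1 to 4) (log2 fold change -1.25, unadjusted p = 0.0137 and adjusted p = 0.790 from edgeR). For Garnl3, at under 2 CPM, the log2 fold change was -1.14 (unadjusted p = 0.0147 and adjusted p = 0.790 from edgeR). For Prg4 and Garnl3, vehicle mice 1 to 3 were the 3 highest of the 8 mice and vehicle mouse 4 was below the highest SPM mouse, as for Marco. For Garnl3 this order rested on near ties, at 0.654 CPM in vehicle mouse 2, 0.646 CPM in SPM mouse 4 and 0.636 CPM in vehicle mouse 4. Both genes were named for their p between these same groups, so the shared order is a description only. The p was under 0.05 in 14 of 17 alternatives for Prg4 and in 13 of 16 for Garnl3. These and the later counts of alternatives include 8 fits with a mouse left out, which share most of their mice. They also include the edgeR fit on genes with at least 1 count, which did not use each gene's spread between mice. In all limma fits on TPM the p was above 0.05, at 0.0789 to 0.0801 for Prg4 and at 0.0696 and 0.0781 for Garnl3. Cd5l, a secreted protein of the scavenger receptor cysteine-rich family, was at 12.7 ± 3.94 CPM in SPM mice and 15.2 ± 7.52 CPM in vehicle mice (SD, n = 4 each, log2 fold change -0.26, unadjusted p = 0.426 from edgeR). The value of Cd5l was 0.07 without vehicle mouse 1 and -0.52 without vehicle mouse 4. All 8 neutrophil markers had an estimate above 0 (median 0.13), as did 10121 of the 21423 genes tested. Of the 8 markers, 2 had an unadjusted p under 0.05 (2.49% of all genes were higher at that threshold). The summed neutrophil markers were 23436 CPM in vehicle mouse 3, where Marco was highest, and 14968, 12746 and 17325 CPM in vehicle mice 1, 2 and 4. The part of cell makeup in the level of Marco was not tested.

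Of 17 further scavenger receptor genes, 12 had an estimate below 0 (52.8% of all genes did) and 5 above, and the median of the 17 was -0.25. Of the 17, 3 had an unadjusted p under 0.05 (6.08% of all genes did), 2 lower (3.59%) and 1 higher (2.49%). None of the 17 passed after adjustment over all genes (edgeR, smallest adjusted p = 0.790). Scara3, Scara5, Scarf2, Megf10, Stab2 and Ssc5d had group means of at most 0.480 CPM, so their signs say little. The genes with the highest TPM were Cd44, a hyaluronan receptor, at 1381 ± 151 CPM in SPM mice and 1419 ± 74.7 CPM in vehicle mice (SD, n = 4 each), Lrp1, an endocytic receptor of the lipoprotein receptor family, and Clec7a, the beta-glucan receptor for zymosan. Lrp1 had 1099, 1473, 1278 and 1012 CPM (SPM mice 1 to 4) and 1697, 1672, 620 and 1281 CPM (vehicle mice 1 to 4), lowest in vehicle mouse 3 like Mrc1 and Stab1 (log2 fold change -0.12, unadjusted p = 0.646 from edgeR). Without vehicle mouse 3 it was at -0.34 (unadjusted p = 0.0295 from edgeR), and without vehicle mouse 1 or 2 at 0.03. Clec7a was at 177 ± 45.2 CPM in SPM mice and 145 ± 20.7 CPM in vehicle mice (SD, n = 4 each, log2 fold change 0.29, unadjusted p = 0.0906 from edgeR). SPM mouse 2 was highest at 243 CPM, and without it the value was 0.09 (unadjusted p = 0.453 from edgeR), while without SPM mouse 4 it was 0.39 (unadjusted p = 0.0320 from edgeR). The p of Clec7a was under 0.05 in 4 of 17 alternatives. Scart1, a scavenger receptor with cysteine-rich repeats that is listed as Cd163l1, had 3.48, 4.43, 4.92 and 2.71 CPM (SPM mice 1 to 4) and 9.68, 5.00, 8.01 and 3.91 CPM (vehicle mice 1 to 4) (log2 fold change -0.77, unadjusted p = 0.0152 from edgeR). As for Marco, its 3 highest mice were vehicle mice 1 to 3. For Scarf1 the log2 fold change was -0.35 (unadjusted p = 0.0410 from edgeR), and the p was under 0.05 in 5 of 17 alternatives (up to 0.127), against 12 of 17 for Scart1 and 12 of 17 for Mrc2. Mrc2, a mannose receptor family member that takes up collagen, had 2.83, 1.86, 7.50 and 7.36 CPM (SPM mice 1 to 4) against 1.59 to 3.32 CPM in vehicle mice (log2 fold change 1.10, unadjusted p = 0.0173 from edgeR), with SPM mice 3 and 4 apart from SPM mice 1 and 2, as for Colec12.

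Of 12 genes for the lipids that scavenger receptors bring in, 11 had an estimate below 0 (52.8% of all genes did), and the median of the 12 was -0.11. Of the 12, 2 had an unadjusted p under 0.05, both lower (3.59% of all genes), and none passed after adjustment over all genes (edgeR). Apoe, the apolipoprotein of cholesterol export from macrophages, was at 232 ± 52.5 CPM in SPM mice and 331 ± 101 CPM in vehicle mice (SD, n = 4 each, log2 fold change -0.51, unadjusted p = 0.0251 from edgeR). Vehicle mouse 3 was at 481 CPM, and without it the log2 fold change was -0.26. Fabp4, a fatty acid carrier, was at 10.5 ± 1.02 CPM in SPM mice and 14.5 ± 5.27 CPM in vehicle mice (SD, n = 4 each, log2 fold change -0.47, unadjusted p = 0.0402 from edgeR), and at -0.18 without vehicle mouse 3. The p was under 0.05 in 13 of 17 alternatives for Apoe and in 8 of 17 for Fabp4. The genes of this list with the highest TPM were Plin2, which coats lipid droplets (log2 fold change -0.09, unadjusted p = 0.513 from edgeR), Npc2, which moves cholesterol out of lysosomes (-0.12, unadjusted p = 0.258 from edgeR), and Lipa, the lysosomal acid lipase (-0.05, unadjusted p = 0.737 from edgeR).

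All 10 of the transcription factors known to act at scavenger receptor genes had an estimate below 0 (52.8% of all genes did), and the median of the 10 was -0.28. Of the 10, 3 had an unadjusted p under 0.05, all lower (3.59% of all genes), with none past adjustment over all genes (edgeR). Cebpb had 349, 415, 400 and 369 CPM (SPM mice 1 to 4) and 470, 528, 862 and 514 CPM (vehicle mice 1 to 4). Every vehicle mouse was above every SPM mouse, as for 2.37% of all genes (log2 fold change -0.63, standard error 0.17, unadjusted p = 0.00236 and adjusted p = 0.790 from edgeR), and the value was -0.39 with vehicle mouse 3 left out. For Maf the log2 fold change was -0.32 (unadjusted p = 0.0284 from edgeR) and for Tfec -0.36 (unadjusted p = 0.0461 from edgeR), which was -0.20 without vehicle mouse 3. The p was under 0.05 in 17 of 17 alternatives for Cebpb, in 9 of 17 for Maf (3 of the 8 with a mouse left out) and in 5 of 17 for Tfec. Spi1, which encodes PU.1, was at -0.11 (unadjusted p = 0.471 from edgeR) and Nfe2l2, the factor of the antioxidant response element, at -0.04 (unadjusted p = 0.755 from edgeR).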

How the data were processed

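Exudate leukocytes of 8 mice were sequenced, 1 library per mouse. Per the labels and the study's methods, the authors trimmed reads with Trimmomatic 0.36, mapped them with STAR 2.5.2b to GRCm38 with ERCC spike-ins, and counted unique exonic reads per gene with featureCounts (Subread 1.5.2). The annotation release and strand setting are not given in the sources used here. The deposited counts are raw. The TPM deposited by the authors could be rebuilt from counts and exonic lengths, spike-ins included, to within 5.0e-05. Groups came from the sample titles. Spike-ins were left out, genes with at least 10 counts in total were kept, and counts were scaled by TMM and compared without covariates in edgeR 4.0.16 (R 4.3.3) by its quasi-likelihood test. A standard error is the size of the log2 fold change over the root of F. DESeq2 1.42.0 and limma 3.58.1 on log2(TPM + 1) and log2(TPM + 0.1) were alternatives, beside other scalings and filters, the mouse number as a block and leaving out each mouse. The fits were tested on simulated data. Log2 CPM for correlations used a prior count of 2. Mice were separate animals, so n is the number of mice. Sequences and older gene names came from RefSeq (GRCm38.p6), and overlaps of exons from GENCODE M21. Coordinates are those of the count files.

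The members and gene lists were chosen with earlier results of these data known. The genes named were all members, the 3 of highest mean TPM and those with an unadjusted p under 0.05 of each list and of the resident macrophage markers, and the genes nearest in pattern (5 for Marco, 2 for each other member). One gene under this rule is not reported here.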

Additional observations from a re-analysis of the deposited data

Results flagged for a closer look

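Of 30 genes checked in both groups, 6 of the 60 groups of 4 mice held a mouse whose gap to the nearest other mouse was above Dixon's 95% critical value for the group's range (chance gives about 1 in 20 groups). None of the 10 scavenger receptor genes was among them. Apoe was at 481 CPM in vehicle mouse 3 against 260 to 295 CPM in the other vehicle mice, Cebpb at 862 CPM against 470 to 528 CPM, and Spi1 at 836 CPM against 532 to 565 CPM, all in vehicle mouse 3. Lipa was at 504 CPM in vehicle mouse 1 against 359 to 364 CPM, Maf at 373 CPM in SPM mouse 2 against 266 to 279 CPM, and Nfe2l2 at 383 CPM in SPM mouse 1 against 511 to 531 CPM in the other SPM mice.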

How the results depend on the processing

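The log2 fold change of Marco was between -1.54 and -1.18 under the alternatives that kept all mice, the last being relative to Adgre1, chosen after seeing the data, and between -1.83 and -1.29 with each mouse left out. The order of the 10 scavenger receptor genes by mean level kept all 10 places with CPM divided by gene length and at least 8 with a mouse left out. Of the 10 genes, 6 to 9 had an estimate below 0 in all these fits.

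The number of genes with an adjusted p under 0.05 was 0 in each alternative but the edgeR fit on all genes with at least 1 count, where it was 160 (2347 at an unadjusted p under 0.05). DESeq2, fitted on the same 35063 genes, called 0 (smallest adjusted p 0.263). The prior degrees of freedom of that edgeR fit were infinite (6.95 with the filter of 10 counts), so that the spread of each gene between mice was not used. The number at an unadjusted p under 0.05 was 799 with limma restricted to a mean TPM of 1 or more, and 856 to 1611 with each mouse left out (856 without vehicle mouse 1). The mouse numbers did not pair the mice (correlations of deviations -0.12 to 0.25, with 2 of 4 SPM mice nearest to their own number). With the replicate block 1333 genes had an unadjusted p under 0.05 and 0 an adjusted one, Marco was at -1.43, and 5 of the transcription factors had an unadjusted p under 0.05.

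Of the further scavenger receptors, 0 had an unadjusted p under 0.05 with limma on log2(TPM + 1), on log2(TPM + 0.1) or restricted likewise, and 1 to 4 with a mouse left out (1 without SPM mouse 3 or 4). Of the lipid genes, 1 had it with filterByExpr and with limma on log2(TPM + 0.1), 0 with both other limma fits, and 0 to 3 with a mouse left out (0 without SPM mouse 4 or vehicle mouse 3, 1 without SPM mouse 1 or vehicle mouse 1). Of the transcription factors, 5 had it with genes of at least 1 count, 1 with each limma fit, and 1 to 4 with a mouse left out (1 without SPM mouse 1, SPM mouse 4 or vehicle mouse 1). The cause was not tested.

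Cd36, Mrc1, Cd163 and Colec12 took both signs with a mouse left out. Among the other named genes, signs turned only for those with an unadjusted p over 0.05. With the limma fits Cd44 and Nfe2l2 were at 0.00 and Lrp1 at 0.02. With a mouse left out the values ranged from -0.09 to 0.04 for Cd44, -0.34 to 0.03 for Lrp1, -0.20 to 0.08 for Lipa, -0.16 to 0.02 for Plin2, -0.08 to 0.07 for Nfe2l2, -0.17 to 0.08 for Spi1 and -0.52 to 0.07 for Cd5l. Among the 10 scavenger receptor genes, depth limits Colec12 most, with 405 counts over the 8 libraries.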
